A study of Mus musculus with 1814 samples.

Results

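Translation initiation factors were followed in single germinal center B cells of mice. Genes were taken as members where the symbol is Eif followed by a digit from 1 to 6, with the 4 Eif2ak kinases and 10 symbols containing -ps left out. The rule found 52 of the 25125 genes in the table of experiments 1, 3 and 4, and 49 of the 15177 genes in the table of experiment 5, where Eif2s3y, Eif4e1b and Eif2c5 were not listed. Eif4e1b and Eif2c5 had a count of 0 in every group of cells, and Eif2c5 carries an Argonaute-family name and matched by symbol only. The rule used names alone, so every comparison below is of values it did not use.

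The 1814 deposited samples were single wells in 5 experiments, sequenced with SmartSeq2 (whole transcripts, no molecular identifiers). In experiments 1, 3 and 4, wells were labelled by Dec status (Dec+ or Dec-), time (12, 30, 46 or 60 h) and zone (dark or light). In experiment 5, wells were Dec+ and labelled by genotype (WT, KO or TA) and zone, with no time. The labels state neither the meaning of Dec, KO and TA nor strain, age or animal. The plates of experiment 5 carry the name Ccnd3, the gene of cyclin D3, whose summed level in the dark zone was 477 CPM (counts per 1e+06) in WT, 89.2 in KO and 287.3 in TA cells. In the light zone it was 349.98 CPM in WT, 78.6 in KO and 118.9 in TA cells. For the dark zone wells of experiment 1 the labels give 30 h while a column of groups in the deposited cell table gives 36 h, and 30 h was used. After wells without a zone and the wells of experiment 1 labelled PB were left out, 959 cells of experiments 1, 3 and 4 and 369 cells of experiment 5 were used.

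Initiation factors bring the small ribosomal subunit to an mRNA and position it at the start codon. eIF2 delivers the initiator tRNA as a complex with GTP and is recharged by eIF2B. eIF3 scaffolds the small subunit, and eIF4F, made of the cap-binding eIF4E, the helicase eIF4A and the scaffold eIF4G, recruits the capped mRNA. eIF1, eIF1A, eIF5 and eIF5B select the start codon and join the subunits, eIF5A acts mainly in elongation and carries hypusine, and eIF6 keeps the large subunit apart. In the germinal center, light zone B cells receive T cell help and induce Myc, and dark zone cells divide. Several initiation factor genes are textbook targets of MYC, which binds the E-box.

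The promoters of 3 members that hold the E-box are shown as examples. The palindromic E-box CACGTG, its own reverse complement, is in capitals. Each line is the 250 bases before a RefSeq start site (GRCm38.p6), on the strand of the gene. Start sites holding the motif were chosen for printing, and the window of 300 bases around the start holds it at 1 of 2 sites of Eif4e, at the 1 site of Eif4a1 and at 3 of 6 sites of Eif5a. Eif4e is on chr3:138527018-138527267 (plus strand), Eif4a1 on chr11:69672424-69672673 (minus strand) and Eif5a on chr11:69921387-69921636 (minus strand).
Eif4e: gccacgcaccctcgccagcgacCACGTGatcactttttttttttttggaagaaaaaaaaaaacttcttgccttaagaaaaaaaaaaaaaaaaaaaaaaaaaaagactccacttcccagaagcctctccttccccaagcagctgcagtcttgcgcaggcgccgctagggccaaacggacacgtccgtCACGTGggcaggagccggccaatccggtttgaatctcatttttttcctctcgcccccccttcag
Eif4a1: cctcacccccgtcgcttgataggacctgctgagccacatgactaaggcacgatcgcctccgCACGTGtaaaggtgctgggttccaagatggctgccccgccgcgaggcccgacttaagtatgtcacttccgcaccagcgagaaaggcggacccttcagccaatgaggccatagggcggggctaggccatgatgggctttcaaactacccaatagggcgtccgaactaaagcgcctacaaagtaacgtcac
Eif5a: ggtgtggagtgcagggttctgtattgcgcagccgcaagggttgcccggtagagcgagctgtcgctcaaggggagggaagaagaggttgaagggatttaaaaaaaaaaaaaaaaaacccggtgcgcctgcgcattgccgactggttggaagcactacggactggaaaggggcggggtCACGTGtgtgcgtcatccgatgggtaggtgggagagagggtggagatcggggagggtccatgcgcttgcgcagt
The E-box nearest the start began 64 bases before it in Eif4e and 74 bases before it in Eif5a. Within a window of 300 bases (250 before to 50 after a start site), the motif was present for 10 of the 40 members found in the promoter table (25%), and for 2187 of all 27025 genes in it (8.09%). The other 7 were Eif4g1, Eif4h, Eif3a, Eif3f, Eif3k, Eif1b and Eif5a2. Eif4a3, with the lowest adjusted p of a member in the Phase comparisons below, had 0 matches. Eif1a, with the lowest in the comparison of zones, was not in the promoter table. A match is a run of letters and not a measured binding site.

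In Dec+ cells of experiments 1, 3 and 4, mean levels per kilobase of exon (GENCODE vM21 gene models, mm10) ranged widely over the family. Eif5a stood highest at 599 CPM per kb, followed by Eif3h at 362, the start codon factor Eif1 at 341 and Eif3f at 301.1. Eif4a3, an eIF4A relative of the exon junction complex, had 208.3 CPM per kb and Eif4a1, the main helicase of eIF4F, had 144.5. Eif4e had 36.5 CPM per kb, below the 63.5 of Eif2s1, the alpha subunit of eIF2, and above the 17.3 of Eif4g1, the scaffold. Eif4ebp1, which binds eIF4E and blocks its contact with the scaffold, had 22.3 CPM per kb. Expected counts were found in 96.2% of the cells of experiment 1 for Eif5a, in 61.1% for Eif4e and in 25.7% for Eif2b3, so that sums of low members rest on few cells. Gene pairs of near-identical sequence (Eif3j1 and Eif3j2, Eif1a and Eif1ax, Eif2s3x and Eif2s3y) may share reads, and Eif4a1 overlaps 3 small RNA genes.

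Dec+ cells were pooled by experiment, time and zone (17 sums of at least 11 cells, with 2612728 to 135700253 counts). B cell markers were present in every sum, while the summed level of 9 T cell markers was at most 224.9 CPM and that of 6 myeloid markers at most 32.8 CPM. Sums of the plasma cell list (5 genes) ran from 674 to 4653 CPM. The labels name no animal, so p-values measure the spread between sums, which come from few experiments.

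Zones were compared in 7 pairs of sums of the same experiment and time (experiments 3 and 4). The question was whether dark zone cells carry more or less initiation factor RNA than light zone cells of the same experiment and time. No member of the 49 tested passed in the quasi-likelihood test of edgeR (adjusted p under 0.05), where 0.323% of all 9302 genes did. At an unadjusted p under 0.05 there were 7 members (14.3%), 1 higher and 6 lower in the dark zone, against 9.41% of all genes. The median log2 ratio of the members was -0.02, while that of all genes tested was 0.20, and 23 members lay above 0 and 26 below, against 64.8% of all genes above 0. The zone labels do not tell fewer transcripts per cell from a smaller share of a larger RNA pool.

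Among members with a mean of 20 CPM or more, 4 of the 5 with the largest differences were lower in the dark zone. Below that level, Eif4e3 and Eif4ebp3 had log2 ratios of 0.78 ± 0.99 and 0.57 ± 1.58. Eif4e ran from 119.5 to 232.2 CPM in the dark zone (median 133.8) and from 120.4 to 533 CPM in the light zone (median 289.5). It was lower in 5 of the 7 pairs, with a log2 ratio of -0.73 ± 0.21 (± standard error; edgeR adjusted p = 0.226). The 2 exceptions were the pairs of experiment 3 at 30 and 46 h, where the light zone itself was near 120 CPM.

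Eif1a, the X-linked factor's autosomal relative in start codon scanning, was lower in 7 of 7 pairs, from a median of 124.99 CPM (42.7 to 223.95) in the light zone to 76.8 (26.8 to 126.8) in the dark zone (-0.69 ± 0.19 as log2 ratio, edgeR adjusted p = 0.19). Eif4a1 was lower in 6 of 7 pairs, from a median of 849.6 CPM (401 to 1109) to 551 (308.5 to 751), with a log2 ratio of -0.51 ± 0.19 (edgeR adjusted p = 0.415). Eif5a was lower in 5 of 7 pairs, from 1794 CPM (1034 to 2921) to 1108 (843 to 1812), with a log2 ratio of -0.45 ± 0.16 (edgeR adjusted p = 0.353). The ranges of both zones overlapped for each of these genes, and for every other member tested.

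Eif2d, which can deliver tRNA without eIF2, was the one higher member among those 5, with a median of 96.8 CPM (66.3 to 136.95) in the dark zone and 56.9 (29.6 to 109.9) in the light zone (edgeR adjusted p = 0.598). Eif3b, an eIF3 subunit, had medians of 120.4 CPM (39.9 to 139.2) and 138.7 (75.8 to 257.1), and its adjusted p was 0.528. Eif2s1 was lower in 6 of 7 pairs (dark zone median 231.3 CPM, light zone 363, log2 ratio -0.32) and so was Eif4g1 (128.2 and 145.99 CPM, log2 ratio -0.33), without passing the test. Eif6 (-0.18), Eif2s3x, the X-linked gamma subunit of eIF2 (-0.19), and Eif4ebp1 (-0.16) differed less, and Eif2s3y did not enter this test. In experiment 3 (12, 30, 46 and 60 h) G1 cells made up 60.5%, 40.3%, 27.4% and 26.1% of the dark zone sums. The light zone sums there had 45.7%, 59.1%, 45.5% and 33.3%. In experiment 4 (12, 30 and 46 h) the shares were 41.8%, 22.4% and 24.1% in the dark zone. In its light zone they were 57.7%, 31.8% and 23.5%. The part of the G1 share in the zone values was not tested. Plasma cell markers were higher in the dark zone in 6 of the 7 pairs, with medians of 2177 CPM (1549 to 4653) in the dark zone and 1290.1 (787 to 4522) in the light zone. B cell markers were also higher there in 6 of 7 pairs (medians 6189 and 5724 CPM), T cell markers in 3 (134.6 and 148.1) and myeloid markers in 5 (7.62 and 5.07). The part of these markers was not tested either.

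**Figure D1:**
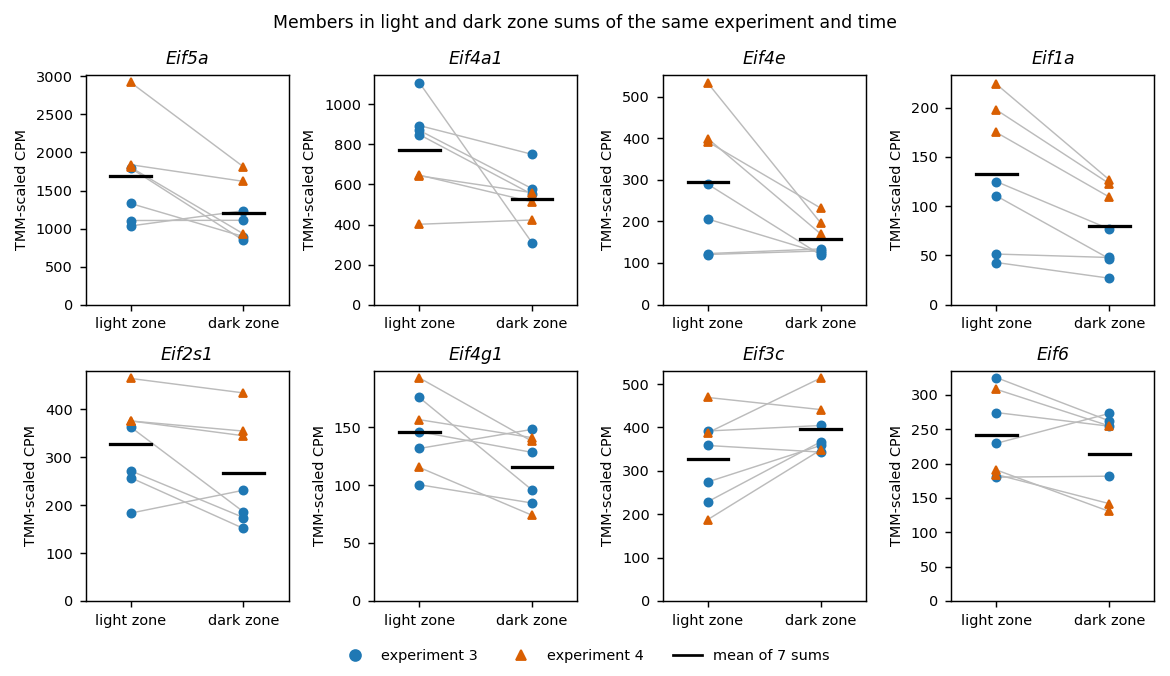
Levels of 8 members (TMM-scaled CPM) in light and dark zone sums. Each point is 1 sum, a line joins the sums of the same experiment and time, circles are experiment 3, triangles experiment 4, and the black bar is the mean of 7 sums. The dark zone point is the lower one on all 7 lines of Eif1a, on 6 of Eif4a1, Eif2s1 and Eif4g1, and on 5 of Eif4e.

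The call depended on the test and on the sums used. With DESeq2 on the same sums, which called 3.42% of all genes higher and 1.66% lower, 4 members were lower in the dark zone: Eif4e (log2 ratio -0.78, DESeq2 adjusted p = 0.0141), Eif1a (-0.73, 0.0175), Eif5a (-0.49, 0.0207) and Eif4a1 (-0.56, 0.0436). With sums by experiment, zone and Phase, edgeR called 0.653% of genes higher and 1.01% lower, among them Eif4e (-0.96, adjusted p = 0.0231) and Eif5a (-0.64, adjusted p = 0.00505). Among partners of the pathway, 0 of 42 tested passed with edgeR. The largest of them was Myc, with a log2 ratio of -1.44 (edgeR adjusted p = 0.227), followed in p by the elongation factor Eef1d (-0.48, 0.26) and Paip2, a repressor that binds the poly(A)-binding protein (0.58, 0.323). In experiment 5, where zones have 1 sum per genotype and no test, Eif5a was lower in the dark zone in all 3 genotypes, at 599.8 against 749.7 CPM in WT, 371 against 482 in KO and 622 against 856 in TA. Eif4a1 was also lower in the dark zone in WT (304.5 and 551 CPM), KO (220.3 and 253.6) and TA (319.5 and 431). Eif4e was lower in WT (206.8 and 348 CPM) and TA (285.4 and 399) and higher in KO (304.4 and 169.8). Eif1a was higher in the dark zone in WT (139.6 and 105.8 CPM) and lower in KO (116.1 and 147.6) and TA (117.9 and 232.4). Eif2s1 was higher in WT (353.9 and 333.4 CPM) and KO (255.7 and 194.7) and lower in TA (329.6 and 435.6).

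The time course set 30, 46 and 60 h each against 12 h within a zone, with 50 members among 11661 genes in 1 fit. These comparisons share the 12 h sums. No member passed in any of the 6, where edgeR called 0% of all genes at each of the 3 later times in the dark zone, and 0% at 30 h, 0.472% at 46 h and 0.12% at 60 h in the light zone. At an unadjusted p under 0.05 there were 1, 4 and 1 members in the dark zone and 1, 5 and 3 in the light zone at 30, 46 and 60 h. These are 2%, 8% and 2% of the members in the dark zone, against 2.19%, 4.30% and 1.66% of all genes, and 2%, 10% and 6% in the light zone, against 3.45%, 11.5% and 7.03%. Member medians in the dark zone were 0.14, 0.17 and 0.02 on the log2 scale, against 0.01, -0.01 and 0.03 for all genes. In the light zone they were -0.12, -0.06 and -0.03, against -0.10, -0.30 and -0.27.

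In the dark zone, Eif4e2, a cap-binding relative of eIF4E that does not join eIF4F, had the lowest p-value of the members at 46 h. It stood at 56.9 and 51.6 CPM at 12 h in experiments 3 and 4, at 92.03 and 99.5 at 30 h (69.1 in experiment 1), at 120.7 and 163.04 at 46 h and at 126.2 and 113.001 at 60 h. Both 12 h sums were below all later ones, and its log2 ratios were 1.33 ± 0.41 at 46 h (unadjusted p = 0.0059, edgeR adjusted p = 1) and 1.14 ± 0.41 at 60 h (unadjusted p = 0.015, edgeR adjusted p = 1).

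Eif5a had 929, 1620.1, 1812 and 902 CPM over the 4 times in experiment 4 and 843, 1108, 1235 and 894 in experiment 3, without passing the test at any time. In both experiments the values of 30 and 46 h were above those of 12 and 60 h. The G1 share of dark zone cells also changed over the 4 times. It was 41.8%, 22.4%, 24.1% and 32.1% in experiment 4 and 60.5%, 40.3%, 27.4% and 26.1% in experiment 3. The part of the G1 share in the time values was not tested. Eif3b had 54.6 and 39.9 CPM at 12 h and 139.2 and 120.5 at 30 h in experiments 3 and 4, but 47.5 at 30 h in experiment 1 (log2 ratio 1.26 ± 0.54, edgeR adjusted p = 1). At 60 h Eif3b stood at 137.7 CPM in experiment 3 and 22.6 in experiment 4, so the experiments went apart.

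Eif4a1 in the dark zone had 308.5 and 423 CPM at 12 h, 551 and 513 at 30 h (462 in experiment 1), 751 and 559 at 46 h and 579 and 325.5 at 60 h. Eif4e stayed between 119.5 and 232.2 CPM in all 9 dark zone sums, and Eif4g1 between 73.9 and 147.99. Eif2s1 ran from 151.5 to 447 CPM and differed more between experiments than between times: experiment 3 had 151.5, 174.3, 231.3 and 186.2 CPM over the 4 times, and experiment 4 had 345, 355, 435 and 293.7.

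Low members gave the other large ratios of the dark zone. Below a mean of 20 CPM, Eif2s3y had a log2 ratio of -9.96 at 46 h, where both sums were at 0. At 12 h it had 0 and 14.96 CPM in experiments 3 and 4. Eif2b3, the gamma subunit of eIF2B, had 2.58 CPM at 12 h in experiment 3 and 36.7 in experiment 4, so that its log2 ratio of 1.09 at 30 h had an SE of 1.11. Eif2b5, the catalytic subunit, had 76.9 and 37.9 CPM at 12 h and 75.02 and 113.9 at 30 h (157.1 in experiment 1). Eif3j2 had 12.8 and 41.96 CPM at 12 h, 29.8 and 88.97 at 30 h and 39.9 and 65.2 at 46 h.

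Eif2b1, the alpha subunit of eIF2B, had 68.5 and 55.6 CPM at 12 h and 125.1 and 90.5 at 46 h. Eif2d had 113.2 and 112.7 CPM at 12 h, 66.3 and 68.5 at 30 h and 72.3 and 136.95 at 46 h. Eif4ebp2, a binding protein of eIF4E, had 58.5 and 22.4 CPM at 12 h and 37.9 and 13.7 at 46 h. None of these low members had a log2 ratio past the threshold at any time.

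In the light zone, Eif2a, another eIF2-independent tRNA carrier, was lowest at 46 h. It had 203.9, 136.6 and 194.4 CPM at 12 h in experiments 1, 3 and 4, 255.96 and 180.97 at 30 h, 57.003 and 93.1 at 46 h and 205.9 in the single sum of 60 h. Both 46 h sums lay below all others, with a log2 ratio of -1.32 ± 0.38 (unadjusted p = 0.00377, edgeR adjusted p = 0.144), and DESeq2 called the gene there (-1.27, DESeq2 adjusted p = 0.0193), where it called 7.97% of all genes lower and 1.65% higher.

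Eif2s3x had 189.6, 146.5 and 373 CPM at 12 h, 179.7 and 328.8 at 30 h, 92.5 and 122.5 at 46 h and 65.05 at 60 h. The 46 and 60 h sums were below those of 12 and 30 h, with log2 ratios of -1.04 (edgeR adjusted p = 0.22) and -1.35 ± 0.47 (edgeR adjusted p = 0.481). Eif1a had 214.1, 110.4 and 223.95 CPM at 12 h and 42.7 at 60 h (log2 ratio -1.47 ± 0.59, edgeR adjusted p = 0.596). The light zone at 60 h has 1 sum of 21 cells, so that its spread is taken from the other groups of the fit. In that sum Eif5a2, a low member, was at 0 (log2 ratio -9.46), after 20.9, 8.90 and 28.2 CPM at 12 h.

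Eif3j1 had 16.2, 46.1 and 48.3 CPM in the light zone at 12 h and 7.55 and 33.2 at 46 h, and Eif3j2 had 50.6, 56.6 and 59.4 and then 7.93 and 64.2. Here too experiment 3, with 11 light zone cells at 46 h, held the low values. Eif2b3 had 73.4, 45.5 and 50.4 CPM at 12 h, 4.15 and 25.4 at 46 h and 8.22 at 60 h, with log2 ratios of -1.997 ± 1.14 and -2.75 ± 1.56 that did not pass. At 30 h Eif2b1 had 58.4 and 81.3 CPM, after 126.3, 104.97 and 124.4 at 12 h, and Eif3e 365 and 503 after 583, 465.98 and 773 (log2 ratio -0.63, edgeR adjusted p = 1).

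Eif5a in the light zone had 1818, 1794 and 1805 CPM at 12 h, 1105 and 1839 at 30 h, 1034 and 2921 at 46 h and 1329 at 60 h. The 3 values at 12 h were close, and the later ones spread by experiment. Eif4e had 246.3, 205.8 and 533 CPM at 12 h and 120.4 and 392 at 30 h (log2 ratio -0.58, edgeR adjusted p = 1). Among 43 listed partners, Mlst8, a subunit of mTORC1, was lower at 46 h in the light zone (edgeR adjusted p = 0.0224), with a level of 0 in both 46 h sums, and no other partner passed in a comparison of times.

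Cells were next grouped by the Phase given in the authors' cell table (G1, S or G2M) and summed over times per experiment, zone and Phase (17 sums of 17 to 90 cells). How the authors assigned Phase is not given in the sources used here. Phase was compared within experiment and zone, with 5 G1 sums, 6 S sums and 6 G2M sums and 5 sets that hold all phases. Both comparisons with G1 share the G1 sums.

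Eif5a, Eif4a3 and Eif4a1 rose in S, and Eif4a3, Eif5a and Eif4e rose in G2M, while Eif3e fell in G2M. In S against G1, edgeR called 3 of 50 members higher and 0 lower, where 4.03% of 10204 genes were higher and 1.93% lower. In G2M against G1 it called 3 higher and 1 lower, where 3.92% of genes were higher and 1.4% lower. The member medians were 0.25 in S and 0.12 in G2M on the log2 scale, against 0.02 and -0.02 for all genes. In each, 31 of 50 members were above 0, against 50.9% of all genes in S and 48.6% in G2M. The share of members at an unadjusted p under 0.05 was 18% in S and 20% in G2M, close to the 17.4% and 16.3% of all genes.

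Eif5a (chromosome 11, 69916714 to 69921958) had 691 and 754 CPM in the dark zone G1 sums of experiments 3 and 4 and 1824, 1019 and 1352 in the light zone G1 sums of experiments 1, 3 and 4. In S it had 1098, 1231 and 1426 CPM in the dark zone and 1892, 1779.6 and 2247 in the light zone of experiments 1, 3 and 4. In G2M it had 1358, 1092 and 1508 CPM in the dark zone and 1819.8, 1649 and 2358 in the light zone. S was above G1 in 5 of 5 sets, with a log2 ratio of 0.62 ± 0.14 (edgeR adjusted p = 0.0127), and G2M in 4 of 5, with 0.65 ± 0.14 (edgeR adjusted p = 0.0111). The phases overlapped over all sets, with the light zone G1 sums of experiments 1 and 4 above the dark zone S and G2M sums of experiment 3, and the S ratio was lowest in the light zone of experiment 1.

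Eif4a3 (chromosome 11, 119288363 to 119300089) had 354 and 203.1 CPM in the dark zone G1 sums of experiments 3 and 4 and 345, 274.3 and 261.9 in the light zone G1 sums. In S it had 345, 559 and 432 CPM in the dark zone and 419, 547 and 455 in the light zone. In G2M it had 607, 451 and 425 CPM in the dark zone and 456, 718 and 528 in the light zone, all above the highest G1 sum. It rose in 5 of 5 sets in S (0.69 ± 0.17, edgeR adjusted p = 0.0294) and in G2M (0.90 ± 0.18, edgeR adjusted p = 0.00668).

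Eif4a1 (chromosome 11, 69666936 to 69672423) had 380.3 and 313.2 CPM in the dark zone G1 sums and 726, 913 and 358 in the light zone ones. In S it had 571, 728 and 531 CPM in the dark zone and 791, 1085 and 623 in the light zone, higher in 5 of 5 sets (0.58 ± 0.15, edgeR adjusted p = 0.0343). In G2M it had 409, 569 and 447 CPM in the dark zone and 835, 772 and 604 in the light zone, higher in 4 of 5 sets without passing.

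Eif4e (chromosome 3, 138526179 to 138559696) had 86.9 and 159.3 CPM in the dark zone G1 sums and 207.8, 103.8 and 348 in the light zone ones. In S it had 187.7, 106.8 and 210.5 CPM in the dark zone and 264.4, 235.7 and 396 in the light zone. In G2M it had 122.7, 178.2 and 196.2 CPM in the dark zone and 325.7, 290.98 and 571 in the light zone, higher in 5 of 5 sets (0.75 ± 0.21, edgeR adjusted p = 0.0491).

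Eif3e (chromosome 15, 43250058 to 43282719), a subunit of eIF3, went down in G2M. It had 433 and 647 CPM in the dark zone G1 sums and 808, 442 and 656 in the light zone ones. In G2M it had 275.4, 368 and 485 CPM in the dark zone and 417, 306.3 and 546 in the light zone, lower in 5 of 5 sets (-0.51 ± 0.14, edgeR adjusted p = 0.0459). In S it had 433, 504 and 678 CPM in the dark zone and 503, 431 and 796 in the light zone, with 3 of 5 sets higher.

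**Figure D2:**
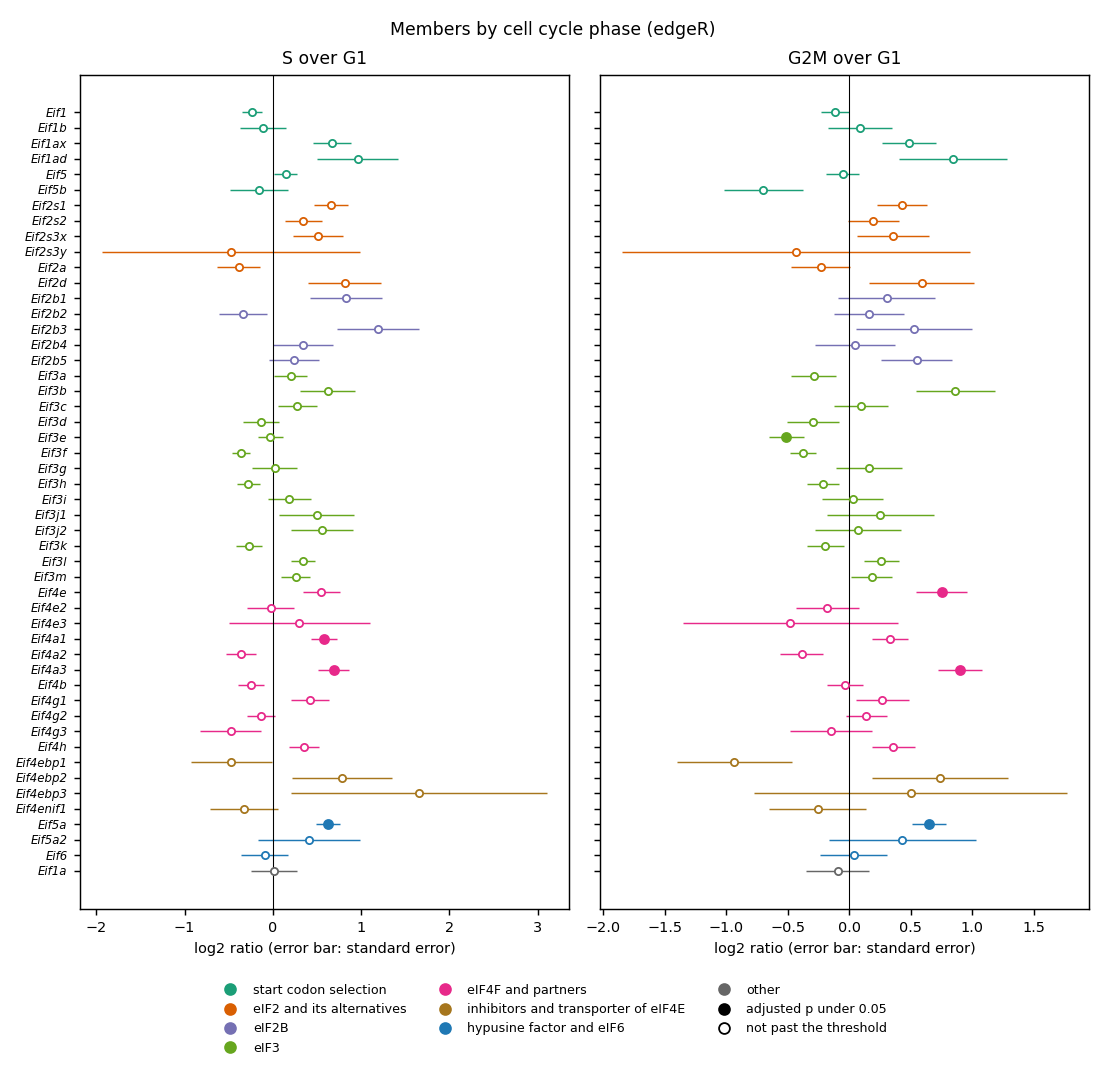
Log2 ratio of S over G1 (left) and G2M over G1 (right) for the 50 members tested, coloured by role. Points are edgeR estimates, bars are standard errors, and filled points have an adjusted p under 0.05. The 3 filled points on the left and 3 of the 4 on the right lie above 0, and Eif3e on the right lies below.

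Eif3f, another eIF3 subunit, was lower in 5 of 5 sets in both comparisons and stopped short of the threshold (S: -0.36, edgeR adjusted p = 0.0599; G2M: -0.38, edgeR adjusted p = 0.0529). Eif2s1 was higher in S in 5 of 5 sets (0.66, edgeR adjusted p = 0.0664) and so was Eif1ax, the X-linked scanning factor (0.68, edgeR adjusted p = 0.0872). Among members with a mean of 20 CPM or more, the largest ratio in S was that of Eif2b3, at 1.19 ± 0.47 (edgeR adjusted p = 0.177), where G1 sums of 10.4 and 8.32 CPM in the light zone of experiments 3 and 4 faced S sums of 59.003 and 57.04. Below that level, Eif4ebp3, an eIF4E-binding protein of at most 7.25 CPM in any sum, had 1.66 ± 1.45.

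Eif1ad, named for its eIF1A domain, was higher in S in 4 of 5 sets (0.96 ± 0.46) and in G2M in 5 of 5 (0.84 ± 0.44), with 15.2 CPM in G1 and 151.8 and 179.1 in S and G2M in the light zone of experiment 4. Eif2b1 (0.83), Eif2d (0.81) and Eif4ebp2 (0.78) had the next ratios in S and none passed. In G2M, Eif4ebp1 had a log2 ratio of -0.93 ± 0.47 (edgeR adjusted p = 0.342), with 22.9 CPM in G1 and 2.19 in G2M in the light zone of experiment 1, and 61.6 and 64.5 in that of experiment 3. Eif3b had 0.86 ± 0.32 in G2M (edgeR adjusted p = 0.168) and was higher in 5 of 5 sets.

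Marker levels moved with Phase as well. The 5 B cell markers summed to 6680 to 8951 CPM in G1, 3793 to 5558 in S and 3824 to 6127 in G2M, higher in G1 in 5 of 5 sets. Plasma cell markers were higher in G1 than in S and than in G2M in 4 of 5 sets, with medians of 2282 CPM in G1, 1262 in S and 1608 in G2M. T cell markers had medians of 169.1, 116.1 and 108.4 CPM and myeloid markers 13.1, 3.57 and 2.30. The part of these in the Phase results was not tested.

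By role, the 14 eIF3 genes divided, with 9 above 0 and 5 below in S and 8 above and 6 below in G2M. The 6 members of eIF2 and its alternatives had medians of 0.43 in S and 0.27 in G2M, and the 11 of eIF4F and partners had 0.30 and 0.14. Eif4g1 was above G1 in 5 of 5 sets in S and 4 of 5 in G2M, and Eif6 in 4 and 3, neither past the threshold. Between G2M and S, no member was called by edgeR, where 0.235% of genes were, and 2 had an unadjusted p under 0.05, Eif3e (-0.48, edgeR adjusted p = 0.202) and Eif3a (-0.49, 0.42), a share of 4% against 7.60% of all genes. Among the 43 partners, Gspt1, the release factor eRF3, rose in S (2.18, edgeR adjusted p = 0.00629) and G2M (1.71, 0.0203), and no other passed.

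The calls changed with the experiments used. Without experiment 3, or without experiment 4, edgeR called 0 members in either comparison with G1, and 0 in the dark or the light zone sums alone, a check chosen after seeing the data. The share of all genes called in these smaller fits is not given, so they cannot show whether the loss of calls is particular to the members. Without experiment 1 edgeR called 5 members in S, adding Eif2s1 and Eif1ax, and 4 in G2M, with Eif3f in place of Eif3e. There 5.61% of genes were higher and 2.34% lower in S and 5.01% and 1.76% in G2M. In WT cells of experiment 5, a further set with no test, Eif5a in S over G1 was 0.67 in the dark zone and 0.21 in the light zone on the log2 scale, and in G2M 1.29 and 1.08. Eif4a3 there was 1.15 and 0.99 in S and 0.52 and 1.29 in G2M, and Eif4a1 0.81 and 0.55 in S. Eif4e in G2M was 1.23 in the dark zone and 1.69 in the light zone of the WT cells, while Eif3e was -0.35 and 0.12. KO and TA cells did not all follow. Eif5a was above G1 in all 8 KO and TA comparisons, 2 of which rest on 2 cells, while Eif4a3 in KO cells was -0.78 in dark zone G2M (12 cells) and -0.31 in light zone S (9 cells). Eif4e in dark zone G2M was -0.37 in KO and -0.16 in TA cells, and -0.58 in dark zone S of TA cells.

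Dec status was compared in the light zone at 12 h, in experiment 1 alone (70 G1, 73 S and 23 G2M cells that were Dec+ and 47, 25 and 8 that were Dec-, on 3 plates), so there is no test, and values are CPM of summed counts. Members were mostly higher in Dec+ cells. Of 45 members that reached 20 CPM in a group, 34 were above 0 and 11 below, with a median log2 ratio of 0.46 (0.42, 0.53 and 0.45 on the 3 plates). Over all 6440 such genes the median was 0.07 (0.14, 0.32 and 0.05 on the plates) and 53.3% were above 0. At least 2-fold higher were 8 members and 0 were 2-fold lower, where 17.7% of all genes were higher and 13.3% lower by that much. On every plate 20 members were higher and 2 lower, and of all genes 20.7% were higher and 12.5% lower on every plate.

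Within eIF4F, Eif4a1 had 699 CPM in Dec+ and 296.5 in Dec- cells (log2 ratio 1.23). The plates gave 636 against 266.2, 679 against 281.3 and 819 against 377 CPM, so the plates did not overlap between the groups. Eif4e had 227.7 and 114.9 CPM (0.98; plates 0.62, 1.37 and 0.92), and Eif4g1 124.9 and 88.9 (0.49; plates 0.15, 0.78 and 0.42). Eif4enif1, which carries eIF4E into the nucleus, had 80.9 and 29.8 CPM (1.41), and Eif4ebp1 was below the level limit at 14.1 and 18.6.

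All 5 subunits of eIF2B were above 0. Eif2b3 had the largest ratio of all members, with 67.8 CPM in Dec+ and 12.1 in Dec- cells (2.39; plates 1.21, 3.50 and 2.84). Eif2b1 had 116.8 and 42.3 CPM (1.44; plates 0.93, 2.88 and 0.79). Of eIF2 and its alternatives 5 of 6 were above 0, led by Eif2s1 at 402 and 191.8 CPM (1.07; plates 1.76, 0.53 and 1.24), with Eif2s3x at 175.2 and 91.9 (0.92; plates 0.47, 0.86 and 2.46).

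In eIF3, 9 of 13 members were above 0. Eif3b had 91.2 and 27.8 CPM (1.68), but 63.6 and 61.8 on the first plate. Eif3a, the largest subunit, had 728 and 372 CPM (0.97; plates 1.00, 0.88 and 0.93). Eif3f went the other way, with 391 and 608 CPM (-0.63; plates -0.65, -1.13 and 0.06).

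Eif5a had 1681 and 968 CPM (0.80; plates 0.41, 0.81 and 1.33), and Eif6 224.1 and 144.7 (0.63; plates 0.51, 0.55 and 0.54). The Y-linked Eif2s3y was lower in Dec+ cells on every plate (81.4 and 142.9 CPM, -0.80). Beside the members, Myc stood at 200.1 CPM in Dec+ and 74.3 in Dec- cells, and 24 of the 35 partners at 20 CPM or more were above 0 (median 0.41).

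**Figure D3:**
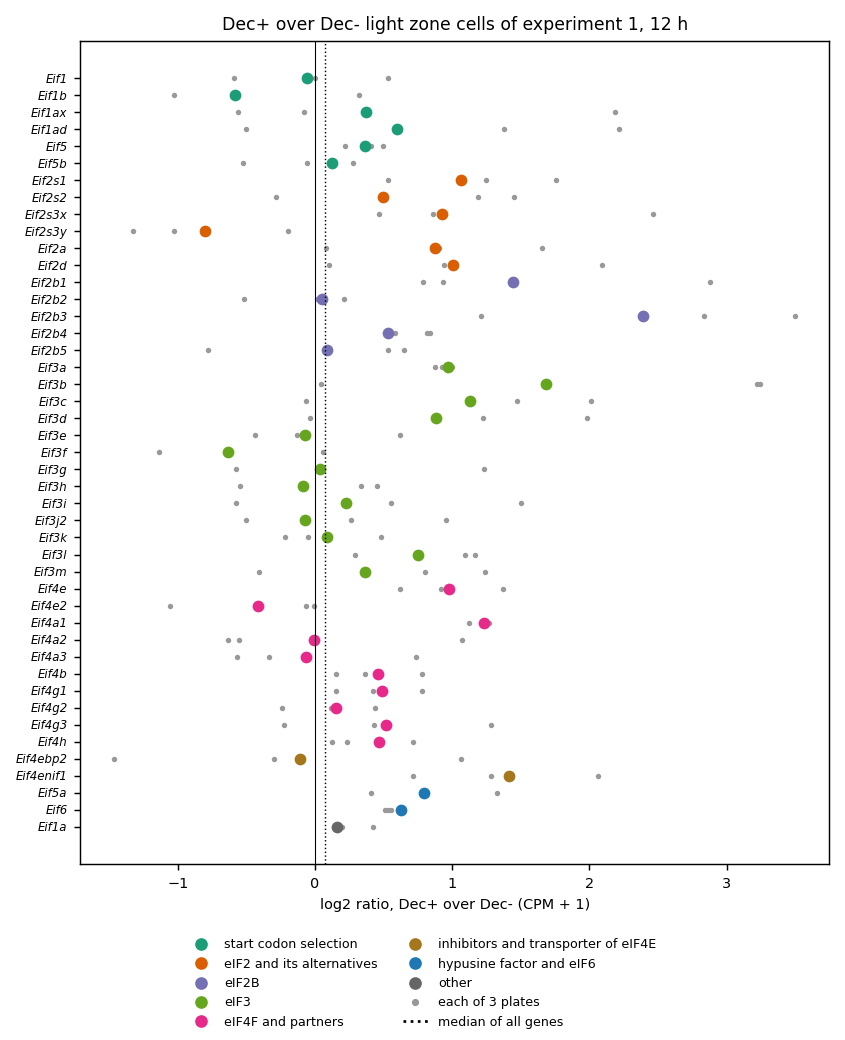
Log2 ratio of Dec+ over Dec- light zone cells of experiment 1 at 12 h (CPM of summed counts plus 1), for the 45 members that reached 20 CPM in either group. Large points are all cells, small grey points the 3 plates, and the dotted line is the median of all genes (0.07). Most large points lie right of the dotted line, and Eif3f and Eif2s3y lie left of 0.

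The groups also differed in other ways. G1 cells made up 42.2% of Dec+ and 58.8% of Dec- cells, and S cells 43.98% and 31.3%. B cell markers summed to 4457 CPM in Dec+ and 7438 in Dec- cells, and T cell markers (9 genes) to 207.9 and 210.3, with Cd8a and Trbc1 at 0 in both and 5 further T cell markers at 0 in Dec-. Myeloid markers summed to 1.62 and 14.3 CPM, with Adgre1 and Itgam at 0 in both. Within Phase, the member median was 0.50 in G1 cells, 0.44 in S cells and 0.25 in G2M cells, against 0.18, 0.20 and 0.23 for all genes. The part of marker levels in the result was not tested.

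Experiment 5 held dark zone cells of WT (82), KO (62) and TA (23 in G1, 46 in S and 32 in G2M) and light zone cells of WT (41), KO (61) and TA (22) on 4 plates, 1 sum per genotype and zone, with no test. KO and TA share the WT cells. In the dark zone, KO cells had lower levels of most members, with 14 of 46 above 0 and 32 below. Of all 7054 genes 42.6% were above 0. The median log2 ratio of the members was -0.38 (plates -0.38, -0.51, -0.63 and -0.11), against -0.16 for all genes (plates -0.13, -0.17, -0.33 and 0). At least 2-fold lower were 8 members and 0 were 2-fold higher, where 15.9% of genes were lower and 11.6% higher by that much. TA cells had a median of -0.03 over 44 members, equal to that of all genes, with no member beyond 2-fold in either direction (8.12% of genes were higher and 10.2% lower).

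Eif4a3 had 132.7 CPM in KO and 279.04 in WT dark zone cells (-1.07), lower on each of the 4 plates (-0.68, -1.27, -1.23 and -1.003). Eif5a had 371 and 599.8 CPM (-0.69; plates -0.53, -1.09, -1.02 and -0.32), and Eif6 50.7 and 96.6 (-0.92; plates -0.49, -0.87, -1.81 and -0.49). Eif3d, an eIF3 subunit with cap contact of its own, had 51.8 and 130.5 CPM (-1.32; plates -0.40, -1.57, -1.04 and -1.80). For each of these 4 genes every plate pointed the same way. Over the 46 members, 13 were lower and 1 higher on every plate, where 13.3% of all genes were lower and 7.13% higher.

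Among members with a mean of 20 CPM or more, the largest ratio was that of Eif1ad, at 21.1 CPM in KO and 72.2 in WT (-1.73; plates -0.68, -0.81, -2.86 and -2.22). Below that level, Eif2b3 had 6.11 and 27.1 CPM (-1.98) and Eif5a2 1.61 and 9.89 (-2.06). Eif2b5 had 22.8 and 64.6 CPM (-1.46) but was higher in KO on the first plate (51.2 and 12.4). Eif3j2 (20.9 and 60.4 CPM, -1.49) and Eif3j1 (16.3 and 38.4, -1.19) were both lower on 3 plates and higher on the second. They are near copies that may share reads, and the part of shared reads was not tested.

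Eif4e was among the 14 members above 0, with 304.4 CPM in KO and 206.8 in WT dark zone cells (0.56; plates -0.06, 0.20, 1.34 and 0.85). Eif4a1 (220.3 and 304.5 CPM) and Eif2s1 (255.7 and 354) both had a log2 ratio of -0.47 and were lower on 3 of 4 plates. Eif4g1 (60.2 and 56.1 CPM), Eif2s3x (137.4 and 174.5) and Eif4ebp1 (23.4 and 17.5) had ratios of 0.10, -0.34 and 0.40. All 5 members of eIF2 and its alternatives were below 0, as were 5 of 6 in start codon selection.

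In the light zone, KO cells had 14 of 46 members above 0 and 32 below, with a median of -0.27 (plates 0.03, -0.61, -0.30 and 0.17). For all 7323 genes the median was -0.05 (plates 0.05, 0, 0.001 and 0.29). There were 5 members at least 2-fold lower and 1 higher, where 16.6% of genes were lower and 18.3% higher. Eif4a1 had 253.6 CPM in KO and 551 in WT (-1.12; plates -0.76, -1.72, -1.39 and -0.35). Eif5, which triggers GTP hydrolysis by eIF2, had 429 and 921 CPM (-1.10; plates -1.11, -1.54, -0.19 and -1.96). Both were lower on all 4 plates, as was Eif5a (482 and 749.7 CPM, -0.64). In total 8 members were lower and 2 higher on every plate, where 7.50% of all genes were lower and 11.1% higher.

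Eif4e had 169.8 and 348 CPM in the light zone (-1.03), with plates of 0.18, -3.001, -1.56 and 0.65 in no common direction. Eif3j2 (26.04 and 66.5 CPM, -1.32) and Eif3j1 (19.2 and 39.4, -1.002) were again low. Eif2s1 (-0.77), Eif6 (-0.85), Eif4g1 (-0.58), Eif2s3x (-0.53) and Eif4ebp1 (0.50) differed by less than 2-fold. Eif4e3, another eIF4E relative, had a count of 0 in the 41 WT light zone cells and 35.02 CPM in KO, found in 9 of 61 KO cells. WT dark zone cells held it, at 15.5 CPM in G1, 25.2 in S and 2.55 in G2M. Against a floor of 3 counts over the WT light zone group the ratio was 60.4-fold. That floor covers counting error and not the spread between cells, so the ratio is no lower limit for the genotypes. With this gene set to that ratio the KO median was -0.27 again.

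In TA cells of the dark zone, Eif1b, a close relative of Eif1, had 88.7 CPM against 45.6 in WT (0.94; plates 0.81, 0.68, 1.17 and 1.05). Eif4e2 had 79.7 and 45.6 CPM (0.79; plates 1.37, 0.71, 0.54 and 0.78). Both were higher on all 4 plates, whereas Eif1ax, at 384 and 220.01 CPM (0.80), had plates from -0.10 to 1.87. Of the 44 members, 4 were higher and 3 lower on every plate, where 7.69% of all genes were higher and 8.14% lower. Eif2b3 had 13.1 and 27.1 CPM (-0.99) and was lower on 4 plates, and Eif3j1 23.1 and 38.4 (-0.71). Eif5a (622 and 599.8 CPM), Eif4a1 (319.5 and 304.5), Eif2s1 (329.6 and 354) and Eif6 (106.7 and 96.6) had ratios between -0.10 and 0.14, while Eif4e (285.4 and 206.8) had 0.46, Eif4g1 (87.7 and 56.1) 0.64 and Eif2s3x (138.5 and 174.5) -0.33.

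The 22 TA light zone cells gave a median of 0.15 over 44 members (plates -0.02, 0.01, -0.20 and 0.51). For all genes it was -0.03 (plates -0.15, -3.27, -0.01 and 0), so most genes were far lower in the TA cells of the second plate. There were 3 members at least 2-fold higher and 4 lower, where 19.1% of genes were higher and 23.5% lower. Eif4e2, higher in TA dark zone cells, was lower here on all 4 plates (12.0 and 69.8 CPM, -2.44). Of the 44 members, 5 were lower and 2 higher on every plate, where 8.15% of all genes were lower and 2.47% higher. Eif3j1 (9.84 and 39.4 CPM, -1.90), Eif3j2 (26.8 and 66.5, -1.28) and Eif3b (10.1 and 31.1, -1.53) were also low, and Eif2b1 was high (90.5 and 35.4, 1.33) with plates in both directions. Eif4e3 was again at 0 in WT and had counts in 2 of the 22 TA cells (37.7 CPM). That is 65-fold the same floor, which is no lower limit for the genotypes here either. Eif5a had 856 and 749.7 CPM (0.19), Eif4a1 431 and 551 (-0.35) and Eif4e 399 and 348 (0.19), the last with no count in TA cells of the second plate.

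**Figure D4:**
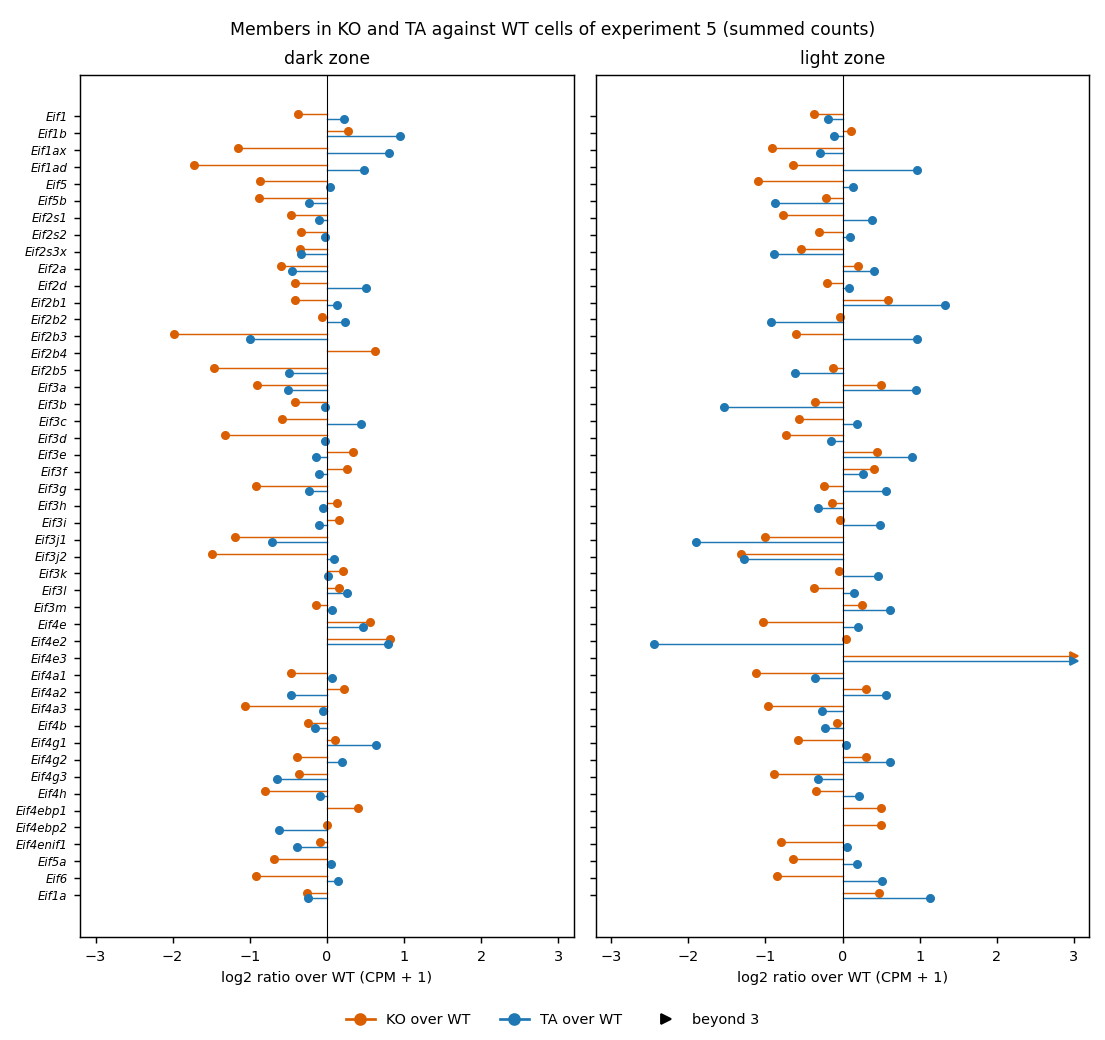
Log2 ratio over WT (CPM of summed counts plus 1) in KO (orange) and TA (blue) cells of experiment 5, for members that reached 20 CPM in a group, in the dark zone (left) and light zone (right). Each line runs from 0 to 1 ratio, and arrowheads mark Eif4e3, beyond the axis because WT is at 0. In the dark zone most orange points lie left of 0 (32 of 46), and the blue points lie on both sides (20 above and 24 below). Of all genes there, 42.6% were above 0 in KO and 48.2% in TA.

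The genotypes differed in cell cycle and in other transcripts. In the dark zone, 77.4% of KO, 46.3% of WT and 22.8% of TA cells were in G1. Within G1 cells, the KO over WT median of the members was -0.25 against -0.08 for all genes. Within G1, Eif4a3 was -0.41, Eif5a -0.17, Eif6 -0.94 and Eif3d -1.72, while Eif4e was 1.22. Plasma cell markers (5 genes) summed to 5585 CPM in KO, 2566 in WT and 2015 in TA dark zone cells. T cell markers (8 of 9 listed) summed to 443, 105.4 and 125.7 CPM, and the median mitochondrial percent per cell was 10.8, 6.93 and 5.94. Myeloid markers (3 of 6 listed) summed to 22.5, 2.15 and 0.967 CPM, with Csf1r at 0 in KO. In the light zone, 73.8% of KO, 36.6% of WT and 54.5% of TA cells were in G1. Within G1 cells there, the KO over WT median of the members was -0.002, against 0.22 for all genes. Plasma cell markers in the light zone summed to 3448 CPM in KO, 1459 in WT and 1267 in TA cells, with Sdc1 at 0 in all 3 and Prdm1 at 0 in WT and TA. The median mitochondrial percent there was 10.4, 6.52 and 5.43. Light zone T cell markers summed to 169.2, 232.2 and 162.96 CPM, and myeloid markers to 37.2 CPM in KO and 0 in WT and TA. The part of these in the result was not tested.

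Eif2s3y separated the experiments. It is the Y-linked copy of the gamma subunit of eIF2, and it was found in 44.1% of the cells of experiment 1 (96.2 CPM), in 0 of 347 cells of experiment 3, which allows a share of cells with a count of up to 0.865%, and in 4.01% of the cells of experiment 4 (13 cells, 13.6 CPM). For experiment 5 the separate table of all wells lists it, with no count in the 369 cells, which allows up to 0.813%. These limits are on cells with a count and not on cells expressing the gene, since most cells of experiment 1 also had none. Xist, transcribed from the inactive X chromosome, was found in 1 cell of experiment 1 and in 55.9%, 60.8% and 77.8% of the cells of experiments 3, 4 and 5. In experiment 4, 19 cells held a count of any of 4 Y-linked genes and 3 of them also held Xist. Sums of experiment 1 thus differ from the others in Y-linked genes, and the comparisons of times and Phase used experiment as block, alone or with zone. The shares cover counting error only.

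**Figure D5:**
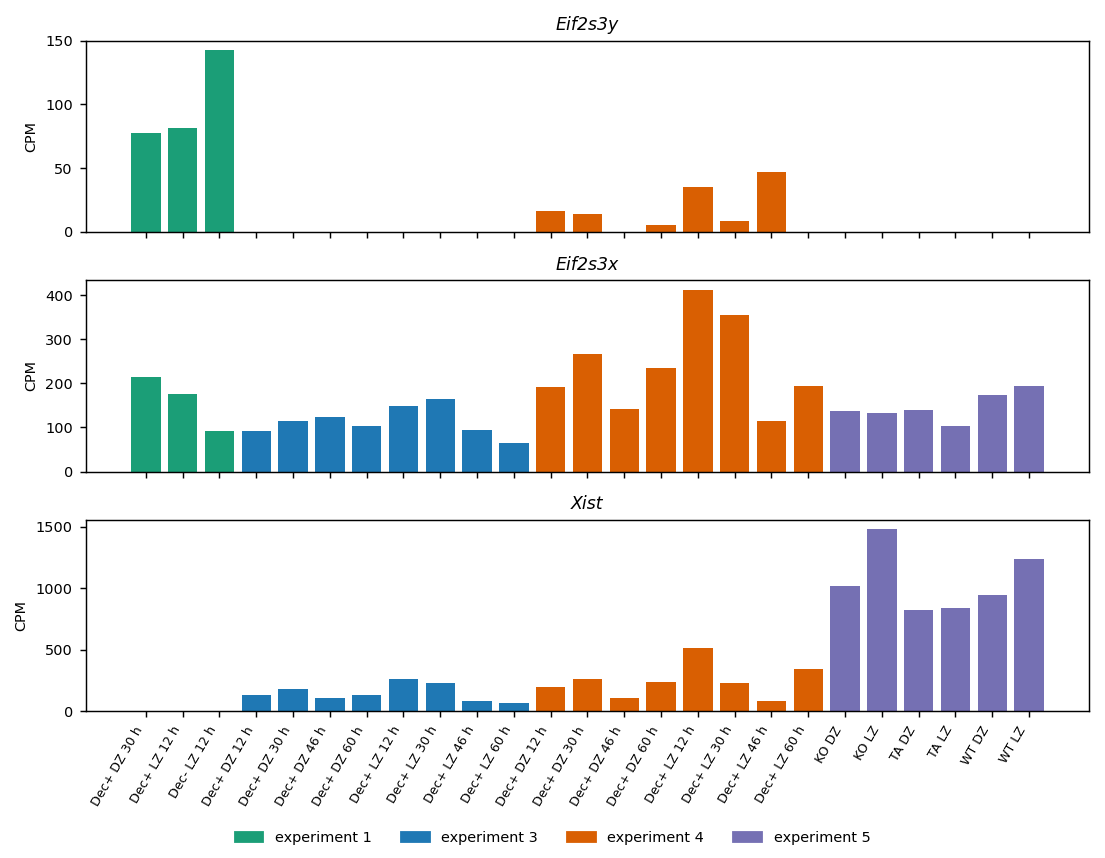
Level (CPM of summed counts) of Eif2s3y, Eif2s3x and Xist in each group of cells, coloured by experiment, 1 bar per group with no replicate error. Eif2s3y is high in the 3 groups of experiment 1, where Xist is near 0, and Eif2s3x is present in all groups.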

How the data were processed

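For each well the authors deposited expected counts per gene, without normalization. Tools named in the submitters' processing notes are STAR 2.6, RSEM 1.3.1 and Seurat 3.1.4, with the build mm10, and their roles are not given. Per the file headers, the authors' tables of cells hold the mitochondrial percent and the Phase. Experiment 2 was not analysed here, since its columns matched no single well. Over all experiments, 255 columns of counts were not mapped to a well and were not used. The wells of experiment 1 labelled PB, which the labels do not define, were left out. So were 10 cells without a zone (6 and 4).

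Members and lists were chosen with earlier results of these data known. Expected counts were summed per group (at least 10 cells) and rounded. Zone, time and Phase were tested in R 4.3.3 with edgeR 4.0.16 (quasi-likelihood; limma 3.58.1 as an alternative) after filterByExpr and TMM scaling, Benjamini-Hochberg adjusted over all genes, threshold 0.05. Levels of these comparisons are TMM-scaled CPM. Residual degrees of freedom were 6 for zone, 7 for time and 9 for Phase. The block was experiment and time for zone, experiment for time, and experiment and zone for Phase. The pairing comes from the labels, which give both zones of an experiment and time. As a check on experiment as block, deviations from group means were correlated across genes between sums of 1 experiment (43 pairs), which gave r from 0.055 to 0.386. For the 7 zone pairs r ran from 0.048 to 0.284, and 5 of them were best with their own partner.

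Comparisons with 1 experiment (Dec status and genotype) had no test: counts were scaled by the group total, ratios are log2 of CPM plus 1, and members needed 20 CPM in either group. Totals per group ran from 3657387 to 135700253 counts. Without molecular identifiers, intervals and floors (3 counts) cover counting error only. Genes named were those past the threshold, the 5 largest ratios per comparison at a mean of 20 CPM or more, and 9 fixed members (Eif4e, Eif4a1, Eif4g1, Eif5a, Eif2s1, Eif2s3x, Eif2s3y, Eif4ebp1 and Eif6). Others named were chosen after their values were seen. The test was checked on simulated counts. For zones it recovered 9, 21, 29 and 37 of 50 genes changed by 2, 4, 8 and 16-fold among 9059 genes, with 4 false calls. For dark zone 30 over 12 h it recovered 0, 11, 16 and 32 of 50 among 11215 genes (5 false calls), and for G2M over G1 10, 13, 28 and 36 of 50 among 10088 (1 false call). Alternatives were DESeq2, limma, other scalings, filters and sums, no block, and leaving out each experiment, pair or plate.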

Additional observations from a re-analysis of the deposited data

Results flagged for a closer look

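In 27 groups of 4 to 10 values tested for a value far from the others, 3 stood out, and chance flags about 1 in 20 groups. The log2 ratio of Eif4a1 between dark and light zone was -1.84 in the pair of experiment 3 at 12 h, while the other 6 pairs lay between -0.62 and 0.07. The S over G1 ratio of Eif5a was 0.0526 in the light zone of experiment 1, while the other 4 sets lay between 0.73 and 0.92. The G2M over G1 ratio of Eif3b was 2.71 in the light zone of experiment 1, and from 0.21 to 0.61 in the other 4 sets.

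Eif4g2, an eIF4G relative that does not bind eIF4E, differed in direction between KO and TA dark zone cells. KO over WT was -0.38 and lower on each of the 4 plates (-0.42, -0.54, -0.23 and -0.33). TA over WT was 0.20 and higher on each (0.13, 0.25, 0.30 and 0.08). Of all genes, 13.3% were lower on every plate in KO and 7.69% higher on every plate in TA dark zone cells. The difference was not tested, and both ratios share the WT cells.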

How the results depend on the processing

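Among alternatives to the counts of members called and to the median ratios, 120 left the result on the same side or within its spread, 7 moved it, 7 added calls and 13 took calls away. Over single members, 1304 alternatives of 1371 stayed on the same side of the threshold, 20 newly passed and 47 no longer did. Zone calls were 4 with DESeq2, 2 with sums by Phase and 0 without any 1 pair or experiment. Time calls were 0 in each case except 1 with DESeq2 in the light zone at 46 h, and the light zone at 60 h could not be fitted without experiment 3. S over G1 calls (3) became 0 without the replicate block, 6 with DESeq2 (Eif3f lower) and 5 without TMM. They became 4 with at least 20 cells per sum, 2 with no filter (without Eif4a1) and 2 with limma (Eif2s1 and Eif5a). Leaving out 1 experiment gave 0 to 5. Of all genes, DESeq2 called 7.28% higher and 4.37% lower in S, and edgeR without TMM 4.33% and 1.7%. With at least 20 cells per sum the shares were 3.68% and 1.91%, with no filter 2.52% and 1.04%, and with limma 4.96% and 1.28%. G2M over G1 calls (4) became 1 without the replicate block, 2 with no filter and 0 with at least 20 cells per sum. They became 2 with limma and 0 to 4 without 1 experiment. Of all genes, 2.41% were called higher and 0.206% lower in G2M without the block. The shares were 2.61% and 0.853% with no filter, and 4.56% and 1.64% with limma. In the dark or the light zone sums alone, added after seeing the data, calls of both comparisons with G1 were 0. For alternatives with 0 calls the share of all genes called is not given. G2M over S had 1 call with DESeq2, where 1.38% of genes were higher and 0.843% lower. The Dec median of 0.46 became 0.30 with means of per-cell CPM, 0.36 to 0.40 without 1 plate and 0.25 within G2M cells. The KO dark zone median became -1.34 within S cells (2 KO cells; -3.06 for all genes), and the TA light zone median -0.67 within G2M cells (2 TA cells; -1.79 for all genes). The cause of these shifts was not tested. Some of these settings also hold fewer sums or cells.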
